A study of Mus musculus with 2 samples.

Results

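10 genes of the interleukin 1 system were followed across the white blood cells of the recovering mouse colon: 4 ligands of the family (Il1b, Il1a, Il18 and Il33), the receptor antagonist Il1rn, 4 receptor genes (Il1r1, Il1r2, Il1rap and Il18r1) and the inflammasome sensor Nlrp3. They were chosen by name and are 10 of the 32285 genes in the count tables. Live CD45+ cells, that is white blood cells, were sorted out of the lamina propria of the colon of 8-week C57BL/6 mice and profiled by droplet single-cell RNA sequencing. Both groups drank 2.0% dextran sulphate sodium (DSS), which injures the colon epithelium, for 7 days and plain water for another 7 days, and were killed on day 14. One group was wild type, and the other was labelled transgenic for E4BP4, a transcription factor encoded by Nfil3, in macrophages. The promoter of the transgene and the number of animals in each library are not given in the sources used here.

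Each genotype was represented by 1 library, so no difference could be tested, and the intervals below are 95% intervals for counting error only. The libraries held 69346746 and 58884332 UMIs (unique molecular identifiers, counted molecules) in 9855 and 10143 barcodes, wild type first here and below. The deposited clusters covered 6466 and 7026 of these barcodes, with medians of 2700 and 2427.5 UMIs. They left out 3389 and 3117 barcodes, which held 70.4% and 66.1% of the UMIs of their library. Of these, 1718 and 1290 are called barcodes with many genes here. They had at least 2200 genes and under 5% of their UMIs in each of mitochondrial, Igh, Igk and Igl genes. The libraries shared 67 deposited barcodes. Levels are in CPM, a gene's UMIs in a cluster per 1000000 UMIs of that cluster, and each ratio divides the level in the second library by that in the first. Nfil3 stood at 84.4 and 73.8 CPM in macrophage-like cells, a ratio of 0.874 (0.724 to 1.06), so the transgene was not visible as a higher level there. Whether its transcript is counted under Nfil3 is not given in the sources used here. Ptprc, which encodes CD45, was detected in 73.4% and 73.3% of all cells, but in 10.7% and 15% of a cluster led by the connective tissue genes Col3a1, Sparc and Dcn and in 14.3% and 15.1% of epithelial-like cells, which lack the sort marker's RNA in most cells.

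The family works as a chain of alarm signals. IL-1 beta and IL-18 are made as precursors that caspase-1 cuts once an inflammasome, such as the one built on NLRP3, has assembled, whereas IL-1 alpha and IL-33 can act when released from injured cells. IL-1 alpha and IL-1 beta bind IL1R1, which then recruits IL1RAP and signals through MyD88. The antagonist IL-1RA occupies IL1R1 without recruiting IL1RAP, and IL1R2 captures the ligand without signalling. In the gut the pathway is known for drawing in neutrophils and for driving cytokine release by IL-17-producing lymphocytes and innate lymphoid cells. Measured here were transcripts only, not the cut or secreted proteins.

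Il1b (chr2:129364570-129371139, minus strand, GRCm38) and Il1a (chr2:129299610-129309972, minus strand) are neighbours with 54597 bases between them. Their promoters are shown because these adjacent genes, encoding the agonists of the same receptor, differed in their pattern across cells. RefSeq's promoter table (GRCm38.p6) held 17 start sites for the 10 members, and 150 bases directly before the listed start are printed for each of the pair, with TATAAA and TGANTCA in capitals. The stretches are chr2:129371140-129371289 and chr2:129309973-129310122, both on the minus strand.
Il1b: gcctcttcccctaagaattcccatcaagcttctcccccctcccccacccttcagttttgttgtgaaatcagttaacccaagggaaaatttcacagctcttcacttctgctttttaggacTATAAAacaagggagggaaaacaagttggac
Il1a: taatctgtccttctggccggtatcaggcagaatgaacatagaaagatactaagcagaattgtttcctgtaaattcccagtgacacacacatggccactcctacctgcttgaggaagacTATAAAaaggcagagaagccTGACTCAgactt
Both hold TATAAA close to the start, a core promoter element found on the sense strand in 7.59% of all 32851 windows of 250 bases. Il1a also holds TGANTCA, the site of AP-1, which was searched on both strands and found in 6.75% of the windows. The D-box TTANGTAA, the site bound by E4BP4, was searched on both strands and stood in 2.06% of all windows and in 0 of the 17 members' windows. These are letter matches in a short window and say nothing of binding.

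Il1b was high in the 4 myeloid classes given here. In neutrophil-like cells the wild type library held 9301 CPM (23562 UMIs, 648 cells) and the library labelled transgenic 16842 CPM (5565 UMIs, 167 cells). Monocyte-like cells held 9296 and 6238 CPM (814 and 437 cells), macrophage-like cells 3685 and 2548 CPM (664 and 1106 cells), and dendritic-like cells 2900 and 1974 CPM (132 and 282 cells). Cells with at least 1 Il1b UMI made up 96.1% and 99.4% of neutrophil-like, 95.2% and 91.5% of monocyte-like and 77.9% and 71.7% of macrophage-like cells. With each cell thinned to 1000 UMIs these shares were 94.0% and 98.7%, 85.6% and 80.8%, and 71.7% and 60.3%. B-like cells, which should not make Il1b, held 97.1 and 44.7 CPM, with a UMI in 20.4% and 10.0% of cells at medians of 2444 and 2233.5 UMIs (9.20% and 4.89% after thinning). These myeloid classes lay far above this level, whereas T-like cells, at 90.1 and 37.6 CPM, lay at it. An unnamed finer cluster led by Cox6a2 and Siglech, which also lead the dendritic-like class, held only 7 and 8 Il1b UMIs in 22 and 48 cells.

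**Figure D1:**
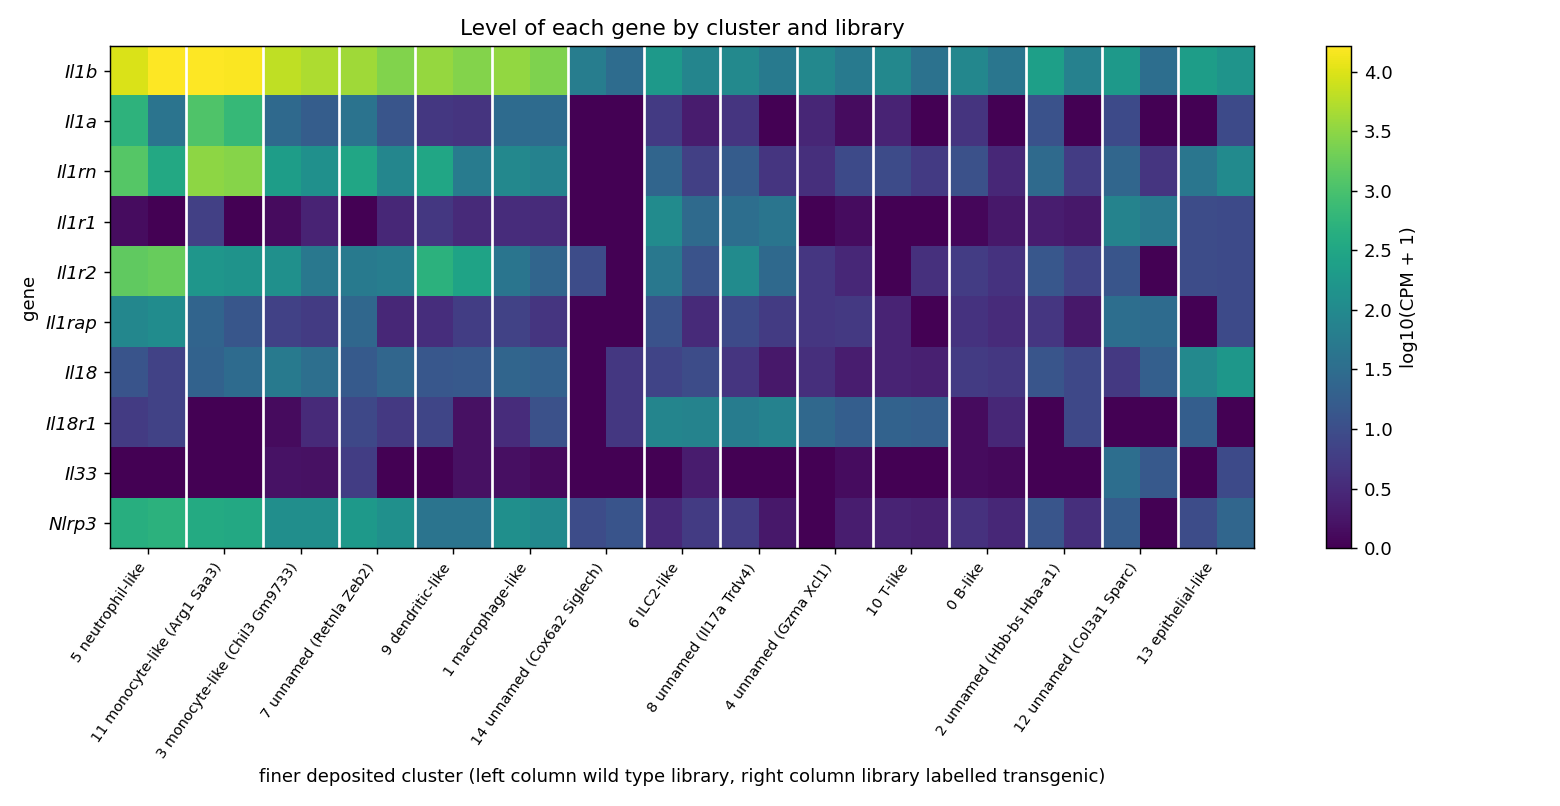
Level of each of the 10 genes (rows) as log10(CPM + 1) in the 15 finer deposited clusters (columns, with the wild type library on the left and the library labelled transgenic on the right of each pair). Il1b, Il1rn and Nlrp3 are brightest in myeloid clusters on the left and Il18r1 in lymphoid clusters in the middle. Il1r1 is bright in lymphoid clusters and in the cluster led by Col3a1 and Sparc, where Il33 is brightest.

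Between libraries Il1b was lower in monocyte-like cells by a ratio of 0.671 (0.658 to 0.684), in macrophage-like cells by 0.691 (0.671 to 0.712) and in dendritic-like cells by 0.681 (0.644 to 0.720), none of them past 1.5-fold. Scaled to the median gene, the ratio was 0.635 in monocyte-like cells, past that fold. In macrophage-like and dendritic-like cells it was then 0.711 and 0.707, not past it. Beside this, summed neutrophil markers stood at 516 and 87.9 CPM in macrophage-like cells (5 of 6 tested lower) and summed monocyte markers at 1458 and 766 CPM (9 of 12 lower), and their part in the lower levels of that class was not tested. In neutrophil-like cells it was higher, at 1.81 (1.76 to 1.86). The median gene there had a ratio of 1.55, and relative to that median Il1b stood at 1.17, no longer past 1.5-fold. The summed CPM of 12 neutrophil markers in this cluster was 262674 and 99975, that of 14 macrophage markers 857 and 2784 and that of 12 T cell markers 39.5 and 363, with median UMIs per cell of 3527 and 1749. The part of these differences in the Il1b ratio was not tested.

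At the finer resolution 2 deposited clusters were monocyte-like. This clustering is separate from the coarser one, so the monocyte-like class is not the sum of these 2 clusters. The larger had Chil3 and Lyz2 among its leading genes (636 and 390 cells), and the smaller was led by Arg1, Saa3 and Nos2, genes of arginine use and acute inflammation (217 and 51 cells). Il1b stood at 16251 and 15478 CPM in the Arg1, Saa3 and Nos2 cluster, a ratio of 0.952 (0.919 to 0.986). It stood at 6558 and 4985 CPM in the larger cluster, a ratio of 0.760 (0.742 to 0.779). Within each finer cluster the libraries were closer than in the class as a whole. Summed neutrophil markers stood at 4053 and 281 CPM in the first and at 1484 and 80.4 CPM in the second, each with most tested markers lower, and their part in the ratios of this and the following genes in monocyte-like cells was not tested.

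Among the deposited cells, monocyte-like cells gave 52.9% (52.6 to 53.3) of the Il1b UMIs of the wild type library and 39.8% (39.3 to 40.3) of those of the library labelled transgenic. Neutrophil-like cells gave 29.8% (29.5 to 30.1) and 16.4% (16 to 16.8), and macrophage-like cells 10.5% (10.3 to 10.7) and 27.7% (27.2 to 28.2). Cell number and level per cell both enter these shares. The left-out barcodes with many genes, outside the deposited clusters, held another 44.8% and 36.5% of each library's Il1b UMIs. Of these barcodes 634 and 78 were most like monocyte-like cells, at 6874 and 4208 CPM of Il1b. With these barcodes added, monocyte-like cells gave 58.4% and 30.7% of the Il1b UMIs and macrophage-like cells 13.7% and 33.5%, so that in the library labelled transgenic macrophage-like cells then gave the larger share.

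Il1a was concentrated in fewer cells than Il1b. In neutrophil-like cells the wild type library held 533 CPM (504 to 562) and the other library 42.4 CPM (23.2 to 71.1), that is 1349 against 14 UMIs. It was detected in 28.4% and 2.99% of these cells, or 18.7% and 1.95% after thinning. The ratio was 0.0796 (0.0434 to 0.134), the lowest of the members tested in neutrophil-like, monocyte-like, macrophage-like and dendritic-like cells, while Il1b in the same cells was higher in the library labelled transgenic. All 14 UMIs of that library lay in 5 cells. The 5 highest wild type cells held 23.5% of the wild type UMIs, with up to 98 in 1 cell.

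In monocyte-like cells Il1a stood at 340 and 80.8 CPM (ratio 0.238, 0.202 to 0.278), and the ratio was 0.396 with the left-out barcodes added and 0.157 without the 5 highest cells of each library. The Arg1, Saa3 and Nos2 cluster held 1127 and 662 CPM (ratio 0.588, 0.496 to 0.693) from 1489 and 158 UMIs. The 5 highest cells gave 47.5% of the 158 UMIs. The larger monocyte-like cluster held 27.1 and 16.7 CPM from 88 and 31 UMIs, a ratio of 0.618 (0.397 to 0.94). Il1a was the 14th and Il1rn the 12th leading gene of the Arg1, Saa3 and Nos2 cluster, so their height there partly defines it and is given as a description. Macrophage-like cells held 32.4 and 31.2 CPM of Il1a, a ratio of 0.962 (0.711 to 1.31). In B-like cells there were 23 and 0 UMIs, so the ratio there was at most 0.152 against a floor of 3 counts.

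**Figure D2:**
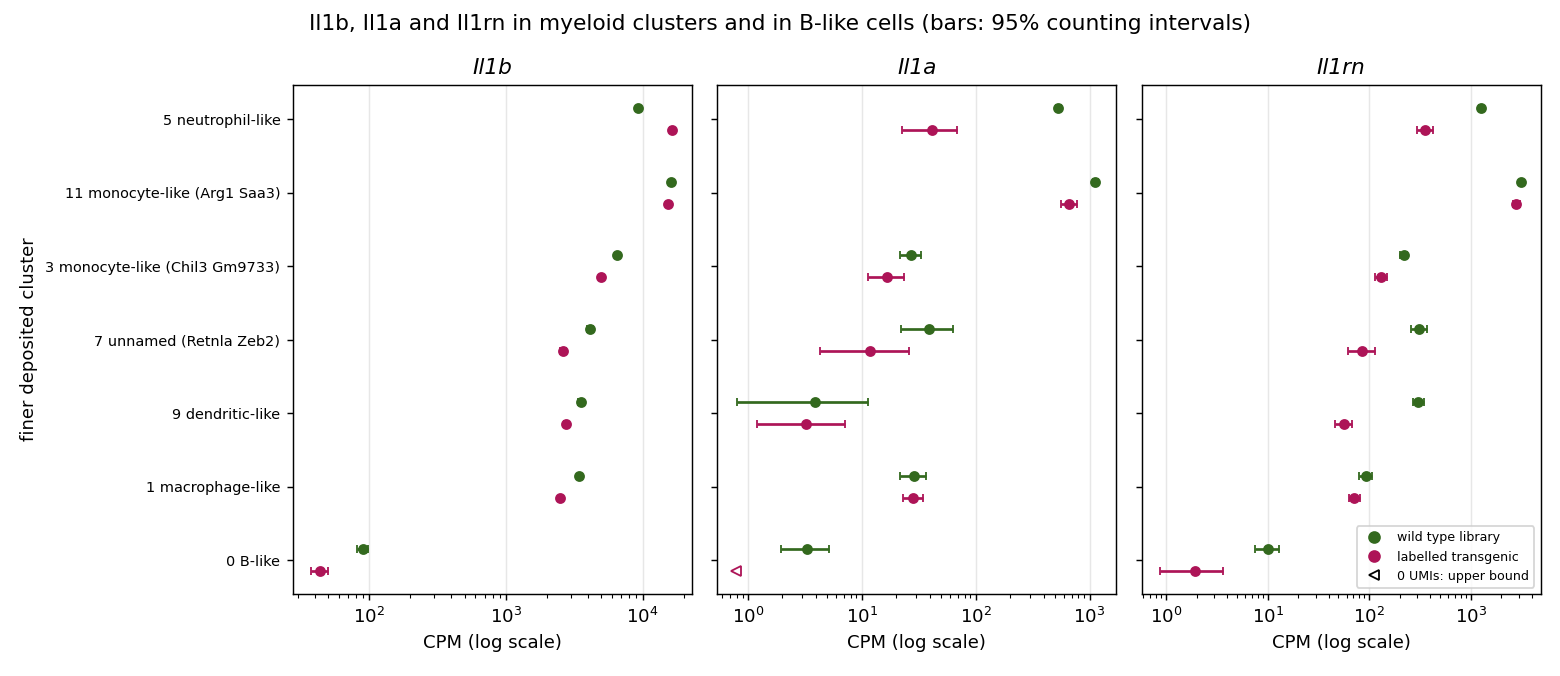
CPM of Il1b, Il1a and Il1rn (log scale) in 6 myeloid clusters and in B-like cells, with 95% counting intervals, green for the wild type library and magenta for the library labelled transgenic. Il1a and Il1rn of neutrophil-like cells are far apart between libraries, while Il1b of the Arg1 and Saa3 cluster nearly coincides. The open triangle is the upper bound of a count of 0. The dendritic-like cluster drawn is the finer one, with Mcpt1, Mcpt2 and Cma2 among its leading genes, whereas the text's dendritic-like values are of the coarser one.

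Il1rn (chr2:24336853-24351494, plus strand), the antagonist, had its highest level in the Arg1, Saa3 and Nos2 cluster, at 3142 CPM (3047 to 3239) and 2833 CPM (2624 to 3055). It was detected in 95.9% and 92.2% of those cells, and the ratio was 0.902 (0.830 to 0.978). The larger monocyte-like cluster held 220 and 131 CPM (ratio 0.597, 0.514 to 0.692). The monocyte-like class, a coarser cluster of 814 and 437 cells, stood at 1078 and 423 CPM (ratio 0.392, 0.365 to 0.421). This ratio was lower than in either finer cluster, which held 217 and 51 and 636 and 390 cells. The ratio of the class was 0.589 with the left-out barcodes added. Neutrophil-like cells held 1266 and 360 CPM (3207 and 119 UMIs), a ratio of 0.284 (0.235 to 0.342), and macrophage-like cells 107 and 78.4 CPM (ratio 0.735, 0.618 to 0.876).

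Dendritic-like cells held 217 and 38.8 CPM of Il1rn, a ratio of 0.179 (0.131 to 0.242). Few cells carried it: the 5 highest held 65.3% of 150 and 72.6% of 62 UMIs. Summed neutrophil markers in the dendritic-like cells stood at 233 and 13.2 CPM, with Mmp9 and Camp at 0, and their part in this result was not tested. B-like cells held 10.6 and 2.21 CPM of Il1rn.

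For every 100 Il1b UMIs, the Arg1, Saa3 and Nos2 cluster held 19.3 (18.7 to 20) and 18.3 (16.8 to 19.9) Il1rn UMIs. In neutrophil-like cells the numbers were 13.6 (13.1 to 14.1) and 2.14 (1.77 to 2.56), and in dendritic-like cells 7.48 (6.29 to 8.83) and 1.97 (1.5 to 2.53). The larger monocyte-like cluster held 3.35 (3.10 to 3.61) and 2.63 (2.31 to 2.99) and macrophage-like cells 2.89 (2.53 to 3.29) and 3.08 (2.73 to 3.46). Scaling by library total cancels in this quotient. The monocyte-like class as a whole held 11.6 (11.3 to 11.9) and 6.78 (6.33 to 7.25), and an unnamed coarser cluster led by the mast cell protease genes Mcpt1, Mcpt2 and Cma2 held 7.93 (6.76 to 9.24) and 3.25 (2.46 to 4.21). Of the groups named here, the intervals of the libraries overlapped in macrophage-like cells and in the Arg1, Saa3 and Nos2 cluster and did not overlap in the others, where the wild type library held more antagonist per agonist transcript. Il1a per 100 Il1b UMIs was 5.73 (5.42 to 6.05) and 0.252 (0.137 to 0.422) in neutrophil-like cells and 6.93 (6.58 to 7.31) and 4.28 (3.63 to 5.02) in the Arg1, Saa3 and Nos2 cluster.

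**Figure D3:**
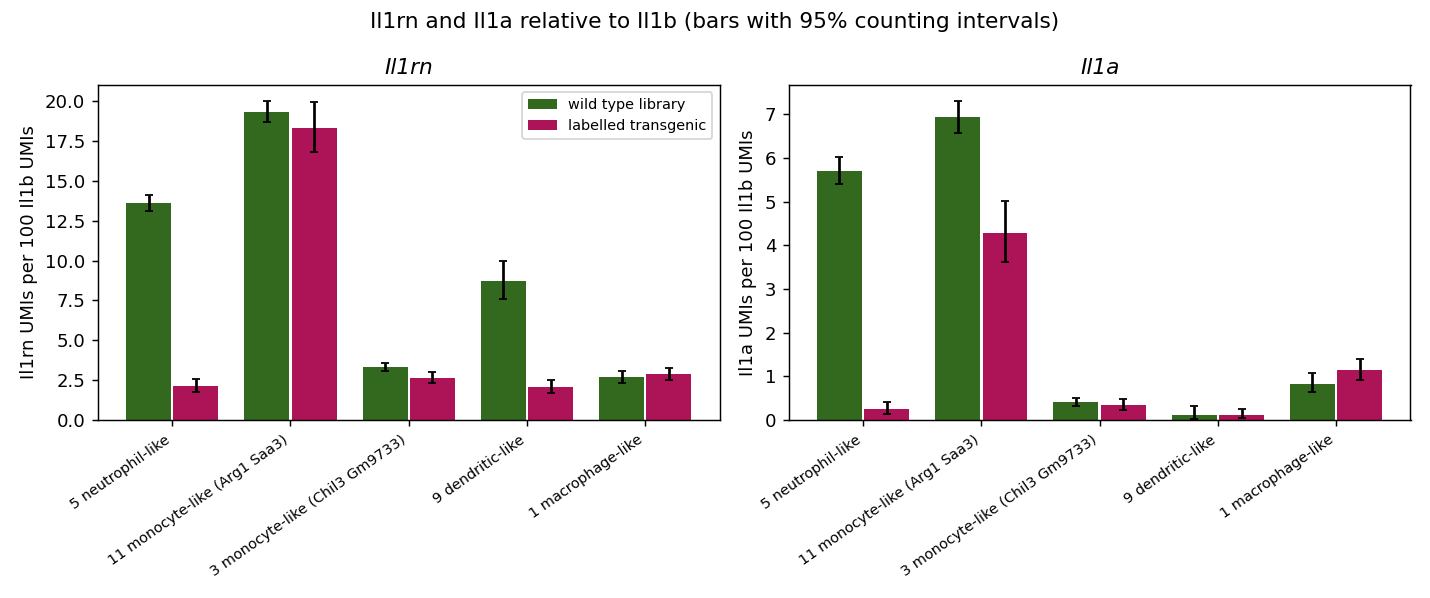
UMIs of Il1rn (left) and Il1a (right) per 100 Il1b UMIs in 5 finer clusters, with 95% counting intervals, green for the wild type library and magenta for the library labelled transgenic. The neutrophil-like pair differs most in both panels, and the Il1rn pair of the Arg1 and Saa3 cluster overlaps. The dendritic-like bars are of the finer cluster, with Mcpt1, Mcpt2 and Cma2 among its leading genes, whereas the text's dendritic-like values are of the coarser one.

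Il1a and Il1rn were also found in the same cells. After thinning, Il1rn was detected in 81.2% (72.8 to 88.0) of the 112 wild type monocyte-like cells with an Il1a UMI and in 23.3% (20.2 to 26.6) of the 701 without. The library labelled transgenic gave 82.6% (61.2 to 95) of 23 and 9.66% (6.99 to 12.9) of 414. Within the Arg1, Saa3 and Nos2 cluster alone the wild type shares were 83.3% (74.9 to 89.8) and 75.9% (66.7 to 83.6), with overlapping intervals. In wild type neutrophil-like cells, which form 1 cluster, the shares were 78.9% (70.0 to 86.1) of 109 and 30.7% (26.6 to 35.1) of 475. Of the thinned neutrophil-like cells in the library labelled transgenic, 3 had an Il1a UMI, too few for a comparison.

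Il18 (chr9:50554827-50581840, plus strand) had another pattern from Il1b. Its highest level was in epithelial-like cells, at 95.8 and 167 CPM from 11 and 21 UMIs in 63 and 53 cells, a ratio of 1.74 (0.803 to 4.0). Among the sorted white blood cells it was highest in the larger monocyte-like cluster, at 54.1 CPM (46.4 to 62.8) and 34.0 CPM (26.1 to 43.5), a ratio of 0.628 (0.463 to 0.842). The Arg1, Saa3 and Nos2 cluster, where Il1b and Il1rn peaked, held 20.4 and 29.3 CPM from 27 and 7 UMIs. Macrophage-like cells held 24.4 and 18.7 CPM (ratio 0.766, 0.530 to 1.11), against 5.23 and 4.43 CPM in B-like cells. Bco2 and Tex12 lie across Il18 on the other strand, and whether counting used the strand is not given in the sources used here.

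Il33 (chr19:29925114-29960718, plus strand), an alarm cytokine kept in the nuclei of barrier and stromal cells, gave 15 and 11 UMIs over all deposited cells. The cluster led by Col3a1, Sparc and Dcn held 8 and 4 of them, at 31.8 and 13.8 CPM. This level rests on too few counts for a ratio between libraries to be read.

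The signalling receptor Il1r1 (chr1:40225080-40317257, plus strand) was sparse, with 118 and 111 UMIs in all deposited cells. ILC2-like cells, named for 5 of 8 group 2 innate lymphoid cell markers (Gata3, Hs3st1, Klrg1, Areg and Rora), held 106 CPM (78.9 to 139) and 28.0 CPM (18.3 to 41.0) from 51 and 26 UMIs, a ratio of 0.264 (0.158 to 0.432). An unnamed lymphoid cluster led by Il17a and Trdv4 held 31.8 and 42.2 CPM (ratio 1.33, 0.815 to 2.20). The Col3a1 cluster held 75.5 and 49.6 CPM from 19 and 14 UMIs, a ratio of 0.657 (0.305 to 1.38). T-like cells had 0 and 0 UMIs (which allows up to 6.15 and 5.14 CPM), an unnamed lymphoid cluster led by Gzma and Xcl1 0 and 1, neutrophil-like cells 1 and 0 and B-like cells 2 and 4. The highest level of the main agonist and that of its signalling receptor thus stood in different clusters.

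In the ILC2-like cluster a larger share of the cells with Il17a than of those without carried Il1r1. A cell with an Il17a UMI carried Il1r1 in 51.4% (34.4 to 68.1) of 37 wild type cells and in 40.0% (16.3 to 67.7) of 15 in the other library. Without Il17a the shares were 5.91% (3.18 to 9.89) of 220 and 3.32% (1.91 to 5.33) of 482. Median UMIs per cell were 1292 and 1127 in the wild type and 1226 and 1238.5 in the other library, with Il17a first. Cells with Il1rl1, the IL-33 receptor, had Il1r1 in 0 of 46 and 0 of 88, which allows up to 6.52% and 3.41%, counted as 3 cells of the total, with 95% exact binomial upper bounds of 7.71% and 4.11%. Cells without Il1rl1 had it in 15.2% (10.6 to 20.7) and 5.38% (3.40 to 8.03), at median depths of 1038 and 1112 UMIs against 3637.5 and 3213 with Il1rl1, and in the library labelled transgenic these intervals overlapped. Cd3e, a chain of the T cell receptor complex, was found in 23 of the 32 wild type cells with Il1r1: 31.1% (20.8 to 42.9) of cells with Cd3e carried Il1r1 and 4.92% (2.27 to 9.13) without. In the other library these shares were 4.85% (2.12 to 9.33) and 4.22% (2.32 to 6.97). Of cells with Gata3, the ILC2 factor, 2 of 72 and 5 of 133 had Il1r1, against 16.2% (11.2 to 22.3) and 4.67% (2.74 to 7.37) without. In the wild type library the Il1r1 of this cluster thus lay mostly in cells with a Cd3e UMI and seldom in cells with a Gata3 UMI, although Gata3 is among the markers that named the cluster. Il17a in the whole cluster stood at 713 and 57.1 CPM, summed ILC2 markers at 3052 and 1613 CPM and summed red cell genes at 1957 and 5.38 CPM, and their part in the Il1r1 ratio was not tested. The split by Il17a was chosen after its values had been seen.

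The Il17a and Trdv4 cluster showed the same pairing in both libraries. Il1r1 was detected in 23.7% (13.6 to 36.6) of 59 and 30.2% (19.2 to 43.0) of 63 cells with Il17a, and in 6.56% (3.43 to 11.2) of 183 and 6.76% (4.18 to 10.2) of 296 without. Their median depth was 4582 against 3302 UMIs in the wild type and 3468 against 2789.5 in the other library. Cells with Trdc, the constant gene of the delta T cell receptor chain, carried Il1r1 in 22.9% (12.0 to 37.3) and 28.6% (18.4 to 40.6), against 7.73% (4.39 to 12.4) and 6.57% (4.0 to 10.1) of cells without Trdc.

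**Figure D4:**
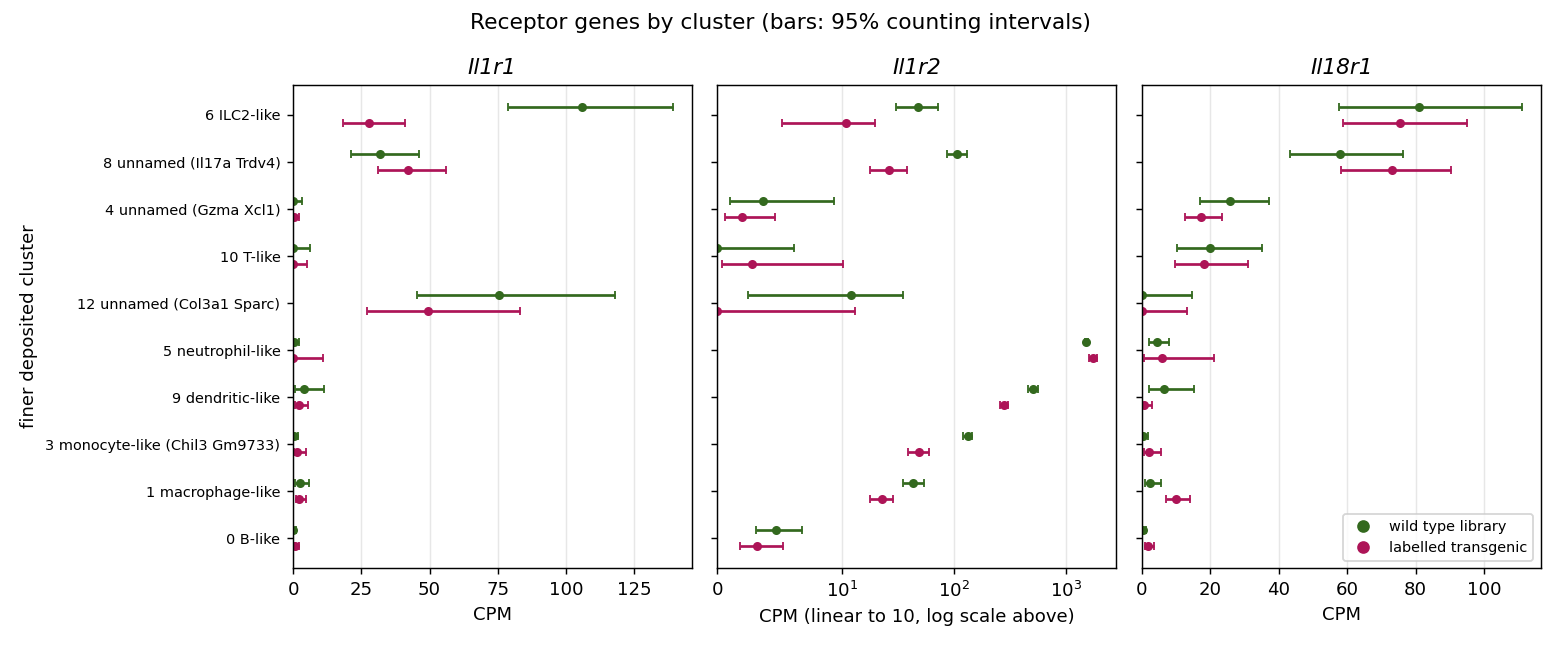
CPM of Il1r1, Il1r2 and Il18r1 in 10 finer clusters with 95% counting intervals, green for the wild type library and magenta for the library labelled transgenic, and with the Il1r2 axis linear up to 10 and logarithmic above. Il1r1 lies in ILC2-like cells, the Il17a and Trdv4 cluster and the Col3a1 and Sparc cluster, and Il1r2 mostly in neutrophil-like and dendritic-like cells. The dendritic-like cluster drawn is the finer one, with Mcpt1, Mcpt2 and Cma2 among its leading genes, whereas the text's dendritic-like values are of the coarser one.

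The decoy receptor Il1r2 (chr1:40074079-40125231, plus strand) lies in the same group of 6 receptor genes over 478 kb of chromosome 1 but was a myeloid gene here. Neutrophil-like cells held 1505 CPM (1458 to 1554) and 1752 CPM (1612 to 1901), a ratio of 1.16 (1.06 to 1.27) where the median gene had 1.55. They carried 74.4% and 41.2% of all Il1r2 UMIs of the deposited cells. Dendritic-like cells came next with 431 and 210 CPM (ratio 0.487, 0.415 to 0.571). Monocyte-like cells held 154 and 90.1 CPM (ratio 0.584, 0.496 to 0.685), and macrophage-like cells 55.5 and 24.7 CPM (ratio 0.445, 0.336 to 0.587). With the left-out barcodes added the ratio was 0.743 in monocyte-like and 0.870 in macrophage-like cells, neither past 1.5-fold. The left-out barcodes most like macrophage-like cells (336 and 343) held 74.0 and 94.1 CPM, a ratio of 1.27 (1.08 to 1.49) and so in the other direction. In monocyte-like, macrophage-like and dendritic-like cells the summed neutrophil markers were lower as well, at 2541 and 177 CPM, at 516 and 87.9 CPM and at 233 and 13.2 CPM, and their part in these ratios was not tested. The cluster led by Mcpt1, Mcpt2 and Cma2 (356 and 501 cells) held 101 CPM (76.2 to 132) and 182 CPM (153 to 216) of Il1r2, a ratio of 1.80 (1.31 to 2.51) from 55 and 134 UMIs, which were 1.07% and 9.54% of all Il1r2 UMIs of the deposited cells.

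Among lymphoid clusters Il1r2 was highest in the Il17a and Trdv4 cluster, at 107 CPM (86.3 to 131) and 26.4 CPM (17.8 to 37.7), a ratio of 0.247 (0.158 to 0.376) from 94 and 30 UMIs. There it was detected in 19.5% (11.3 to 30.1) of 77 and 10.0% (4.68 to 18.1) of 90 cells with Foxp3, the regulatory T cell factor. Cells without Foxp3 carried it in 10.3% (6.12 to 16) of 165 and 2.97% (1.29 to 5.78) of 269. The 5 highest cells held 51.1% and 60.0% of the UMIs. Summed neutrophil markers in this cluster stood at 419 and 93.2 CPM, with 4 of 4 tested lower and Csf3r and Mmp8 at 0, and their part in the ratio was not tested.

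The co-receptor Il1rap (chr16:26581704-26730117, plus strand) was sparse outside neutrophil-like cells, where it stood at 90.8 CPM (79.4 to 103) and 118 CPM (83.9 to 161), a ratio of 1.30 (0.901 to 1.83). Monocyte-like cells held 10.9 and 5.08 CPM from 49 and 11 UMIs, a ratio of 0.467 (0.219 to 0.909), and macrophage-like cells 5.77 and 3.53 CPM from 13 and 13 UMIs. The B-like level was 3.17 and 2.21 CPM. The Col3a1 cluster, with its Il1r1, held 31.8 and 28.4 CPM from 8 and 8 UMIs.

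Il18r1 (chr1:40465552-40500854, plus strand), the binding chain of the IL-18 receptor, was a lymphoid gene. It stood at 81.0 CPM (57.6 to 111) and 75.4 CPM (58.8 to 95.2) in ILC2-like cells and at 58 and 73.0 CPM in the Il17a and Trdv4 cluster. The Gzma and Xcl1 cluster held 25.7 and 17.4 CPM and T-like cells 20 and 18.1 CPM. The ratios in these 4 clusters ran from 0.678 to 1.26, and each interval included 1. Within the ILC2-like cluster 1 of 46 and 1 of 88 cells with Il1rl1 carried Il18r1. Without Il1rl1 it was 23 of 211 and 53 of 409, at median depths of 1038 and 1112 UMIs against 3637.5 and 3213. The intervals of these shares overlapped in the wild type library only. With Gata3 it was 5 of 72 and 9 of 133, and without 19 of 185 and 45 of 364, with overlapping intervals. Cells with Il18r1 there thus mostly lacked an Il1rl1 UMI. In macrophage-like cells Il18r1 was 2.22 and 9.49 CPM from 5 and 35 UMIs, a ratio of 4.28 (1.67 to 14). The summed CPM of 12 T cell markers in those cells was 259 and 597, none of them at 0, and that of 9 natural killer or ILC1 markers 27.1 and 179, with Klra4 and Klra8 at 0. Their part in this result was not tested.

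Nlrp3 (chr11:59541568-59566956, plus strand), the sensor of the inflammasome that activates caspase-1, followed the myeloid clusters. Neutrophil-like cells held 439 CPM (414 to 466) and 530 CPM (454 to 614), the Arg1, Saa3 and Nos2 cluster 375 and 344 CPM, macrophage-like cells 135 and 107 CPM and dendritic-like cells 28.9 and 27.6 CPM. In the neutrophil-like cells the ratio was 1.21 (1.02 to 1.41), below the median gene. The monocyte-like class stood at 187 and 130 CPM (ratio 0.697, 0.607 to 0.798). In the larger finer monocyte-like cluster the ratio was 1.01 (0.851 to 1.19) and in the Arg1, Saa3 and Nos2 cluster 0.917 (0.717 to 1.16). Thinned macrophage-like cells with an Nlrp3 UMI carried Il1b in 88.4% (78.4 to 94.9) of 69 and 87.4% (79.4 to 93.1) of 103 cells, against 69.5% (65.4 to 73.4) of 532 and 57.4% (54.1 to 60.6) of 931 without Nlrp3.

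Counted over the members with at least 20 UMIs in a class, 4 of 7 were at least 1.5-fold lower and 0 higher in monocyte-like cells (Il1a, Il1rn, Il1r2 and Il1rap), where 23.9% of all 9302 genes tested were past that fold, 9.05% lower and 14.9% higher. The members' median log2 ratio was -0.78, against 0.08 for all genes tested. In the larger monocyte-like cluster Il1a, Il1rn, Il1r2 and Il18 were past the fold, 4 of 7 against 20.7% of all genes (8.84% lower, 11.9% higher), and in the Arg1, Saa3 and Nos2 cluster Il1a and Il1rap, 2 of 7 against 42.5% (19% lower, 23.6% higher). Il1rap in the Arg1, Saa3 and Nos2 cluster had a ratio of 0.573 from only 29 and 3 UMIs. In neutrophil-like cells 1 of 7 was higher (Il1b) and 3 were lower (Il1a, Il1rn and Il18, the last from 28 and 2 UMIs), against 62.3% of all genes past the fold (52.1% higher, 10.2% lower) and a median log2 ratio of 0.63. Relative to that median 0 members were higher and 3 lower.

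In macrophage-like cells, the cells meant to carry the transgene, Il18r1 was higher and Il1r2 and Il1rap lower, 3 of 8 against 17.2% of all genes (8.66% higher, 8.52% lower), and the median log2 ratio of the members was -0.41 against -0.04. Il1rap there had a ratio of 0.611 from only 13 and 13 UMIs. In dendritic-like cells 2 of 5 were lower (Il1rn and Il1r2), against 22.9% of all genes (11.4% lower, 11.5% higher). In T-like cells 1 of 2 was lower, Il1b at its B-like level, where 22.9% of all genes were past the fold, 8.35% lower and 14.5% higher. In ILC2-like cells 3 of 4 were lower (Il1b, Il1r1 and Il1r2), against 23.2% of all genes past the fold (13.2% lower, 9.95% higher), beside summed neutrophil markers of 800 and 57.1 CPM. Il1b there stood at only 187 and 82.9 CPM from 90 and 77 UMIs, a level to be read beside that of B-like cells. Over all deposited cells 6 of 10 members were lower and 1 higher, against 21.5% of all genes (7.82% lower, 13.6% higher), a comparison in which the numbers of cells of each cluster enter.

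In the cluster led by Mcpt1, Mcpt2 and Cma2, 6 of 6 members with enough UMIs were past 1.5-fold, against 27.9% of all genes (13.1% higher, 14.8% lower). Il1b stood at 4128 and 2470 CPM (ratio 0.598, 0.562 to 0.637), Il1rn at 327 and 80.2 CPM (ratio 0.245, 0.180 to 0.331) and Nlrp3 at 178 and 99.3 CPM (ratio 0.557, 0.405 to 0.762). Il1a was lower too, at 99.2 and 9.52 CPM from 54 and 7 UMIs. Il1r2, given above, and Il18, at 11 and 20.4 CPM from 6 and 15 UMIs (ratio 1.85, 0.678 to 5.82), were higher. Summed neutrophil markers in these cells stood at 3740 and 186 CPM, summed mast cell markers at 3613 and 6298 CPM and summed dendritic markers at 2459 and 4812 CPM, and their part in these ratios was not tested.

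**Figure D5:**
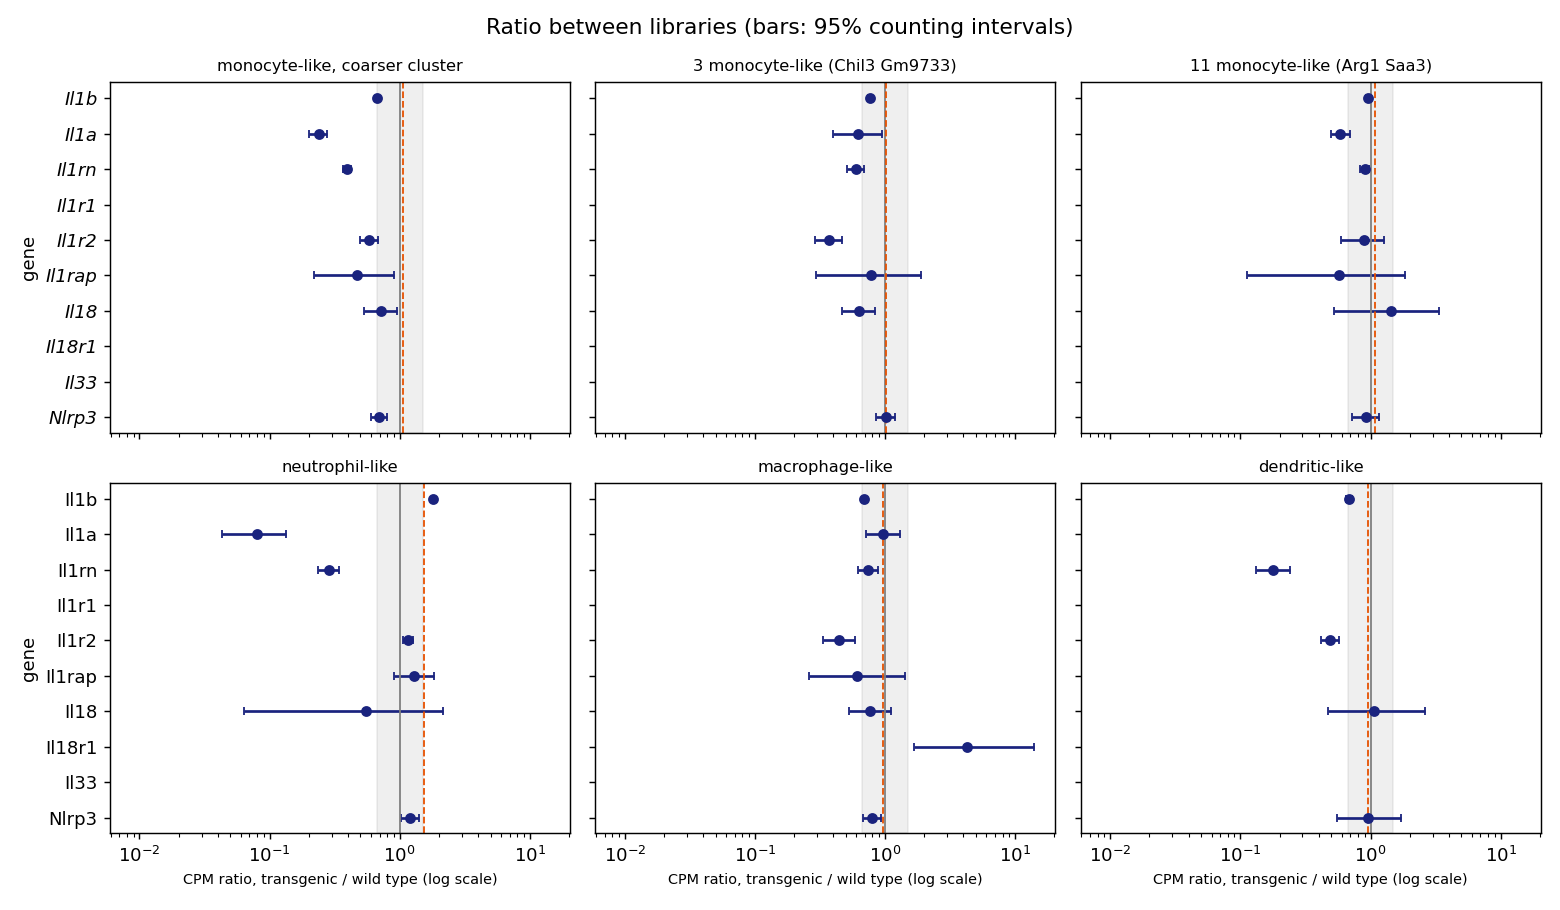
Ratio of CPM (library labelled transgenic over wild type, log scale) of each member with at least 20 UMIs, with 95% counting intervals. Panels are the coarser monocyte-like class, the 2 finer monocyte-like clusters and 3 other classes. Grey marks the range within 1.5-fold and the dashed line the median of all genes tested. Points of the Arg1 and Saa3 cluster lie closer to 1 than those of the whole monocyte-like class, except Il18, and Il1a of neutrophil-like cells lies lowest.

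The other genes of the pathway were taken from 5 lists, of which 73 of 77 symbols were among the feature names. Among 18 response genes of IL-1 signalling, 2 were at least 1.5-fold higher and 6 lower in monocyte-like cells, with a median log2 ratio of -0.24 against 0.08 for all genes. Of all genes tested there 14.9% were higher and 9.05% lower. Cxcl2 and Cxcl1, which draw in neutrophils, were both lower. Cxcl2 had 9098 and 2559 CPM (ratio 0.281, 0.273 to 0.289). For Cxcl1 the levels were 456 and 103 CPM (ratio 0.227, 0.197 to 0.260). Csf3, the granulocyte growth factor, stood at 78.2 and 8.78 CPM. In the larger monocyte-like cluster alone 4 response genes were higher and 3 lower of 17, where 11.9% of all genes were higher and 8.84% lower. Cxcl1 stood there at 44.3 and 105 CPM (ratio 2.38, 1.91 to 2.97). The direction of Cxcl1 thus differed between the coarser class and the larger finer cluster.

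In the Arg1, Saa3 and Nos2 cluster 4 response genes were higher and 5 lower of 18, shares close to those of all genes in this cluster (23.6% and 19%): Tnf stood at 130 and 432 CPM (ratio 3.32, 2.57 to 4.26), Il6 at 30.3 and 147 CPM (ratio 4.85, 2.99 to 7.82), and Ccl2 at 32.5 and 184 CPM. Lcn2, an iron-binding protein of neutrophil granules, was lower there, at 705 and 50.3 CPM. Summed neutrophil markers, which include Lcn2 itself, stood at 4053 and 281 CPM, and their part was not tested. In macrophage-like cells 8.66% of all genes were higher and 8.52% lower. Of 16 response genes there 1 was higher and 4 lower, with a median log2 ratio of -0.32. Among them Ptgs2, the inducible cyclooxygenase, stood at 330 and 149 CPM (ratio 0.454, 0.405 to 0.507), and Cxcl2 at 3111 and 1852 CPM (ratio 0.595, 0.576 to 0.615).

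Of the list of inflammasome and release genes, in macrophage-like cells 0 were higher and 2 lower of 16 with a median log2 ratio of -0.08. Of all genes there 8.66% were higher and 8.52% lower. In monocyte-like cells 3 genes of the list were higher and 0 lower of 17 with a median of 0.11. There 14.9% of all genes were higher, a share near that of the list. Txnip, a binding partner of NLRP3, was among the higher ones, at 107 and 189 CPM (ratio 1.77, 1.55 to 2.02). Of 17 receptor signalling genes, 4 were higher and 1 lower in monocyte-like cells, where 23.9% of all genes were past the fold, and 1 was higher relative to the median gene. The lower one was Irak3, an inhibitor of the pathway, at 54.7 and 23.1 CPM (ratio 0.422, 0.305 to 0.574). In macrophage-like cells 1 of 17 was higher and 1 lower, against 17.2% of all genes past the fold: Peli1, a ubiquitin ligase of the pathway, stood at 108 and 172 CPM (ratio 1.59, 1.37 to 1.85) and Myd88, the adaptor, at 52.4 and 31.7 CPM (ratio 0.606, 0.465 to 0.789). Other ligands, receptors and binding proteins were sparse. In monocyte-like cells 5 of 12 reached 20 UMIs and 4 of these were higher, where 14.9% of all genes were higher. Among these 4, Il1rl1 had only 2 and 18 UMIs and Sigirr 9 and 17. The fifth, Il1f9, an agonist of the IL-36 receptor, was lower, at 7.56 and 0.924 CPM from 34 and 2 UMIs. In the finer clusters 0 were higher, of 2 tested in the larger and 1 tested in the Arg1, Saa3 and Nos2 cluster. Summed T cell markers in the monocyte-like class stood at 19.6 and 81.8 CPM and summed mast cell markers at 21.6 and 62.4 CPM. Their part in the 4 higher genes of that class was not tested.

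Cytokines that lymphocytes release after IL-1 or IL-18 were read in the clusters that carried the receptors. In ILC2-like cells 2 of 7 were higher and 5 lower, with a median log2 ratio of -0.97 against -0.06 for all genes. Of all genes there 9.95% were higher and 13.2% lower. Il17a stood at 713 and 57.1 CPM (ratio 0.0801, 0.0588 to 0.107), Csf2 at 1039 and 349 CPM (ratio 0.336, 0.291 to 0.387), and Il22 at 29.1 and 408 CPM (ratio 14, 8.26 to 25.9). Of the 257 and 497 cells, those with a UMI numbered 37 and 15 for Il17a, 34 and 63 for Csf2, and 5 and 8 for Il22. The Il22 ratio thus rests on few cells and is not a shift of the whole cluster. Cells with Csf2 carried Il1r1 in 1 of 34 and 3 of 63, against 13.9% and 4.38% of cells without Csf2. They carried Il18r1 in 1 of 34 and 4 of 63, against 10.3% and 11.5%. The intervals overlapped, and median depth was 4279 and 3296 UMIs with Csf2 against 1068 and 1135 without. Of the ILC2 markers, which share Il13, Il5 and Areg with this list, 6 of 8 were lower, and summed ILC3 markers, which share Il22 and Il17f, were 627 and 908 CPM. Their part in these results was not tested. In the Il17a and Trdv4 cluster 2 of 6 were higher and 1 lower, where 21.4% of all genes were past the fold, and in the Gzma and Xcl1 cluster 1 of 3 was higher and 1 lower, where 16.5% of all genes were past the fold. There Ifng stood at 68.8 and 163 CPM (ratio 2.37, 1.85 to 3.08) and Areg at 38.5 and 11.1 CPM (ratio 0.288, 0.172 to 0.475).

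Genes with the most similar pattern were sought over 28 points, the 14 finer clusters with enough cells in each library, by Pearson's r of log2(CPM + 1). The points of a library share its depth and free RNA, and r is a description. Il1b was closest to Alox5ap (0.975), the protein that presents arachidonic acid for leukotriene synthesis, then Wfdc17 and Cd14 (both 0.962). Il1a was closest to Cxcl2 (0.932) and Il1rn to Cd14 (0.936), the co-receptor for endotoxin. Nlrp3 was closest to Cd14 (0.947), Il1r2 to Adam8 (0.920), Il18 to Vps35 (0.891), Il18r1 to Tigit (0.862), Il1rap to Rnf11 (0.830) and Il1r1 to Vps37a (0.769).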

How the data were processed

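The authors deposited UMI counts per gene and barcode for each library, not normalized, and cell metadata whose count columns give UMIs and genes per cell and whose other columns give cluster numbers at resolutions 0.4 and 0.5, per the file headers. The deposited UMI column equalled the sum of the cell's counts in 28.0% and 29.6% of cells and was otherwise lower, by a median of 1 UMI over all cells and at most 12 and 58 UMIs; the reason is not given in the sources used here, and levels use the sums of the count tables. Tools given in the submitters' processing notes are Seurat 4.0 and Cell Ranger 5.0.0, and the build is mm10; their roles are not stated there. Identifiers and symbols come from the deposited features tables, and coordinates from GENCODE, GRCm38, by identifier. The labels give no filter on cells. Barcodes above 2200 genes were outside the metadata.

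CPM is a gene's summed UMIs per cluster and library over the cluster's UMIs, with exact Poisson intervals, exact conditional binomial intervals for ratios and Clopper-Pearson intervals for shares. PCR and cell-to-cell variation are not covered. Genes needed 20 UMIs over both libraries, 1.5-fold counted as past the fold, and a fold against 0 used a floor of 3 counts. Clusters were named from marker lists: at least 3 markers and 50.0% of a type's markers had to be 2-fold up and in 10.0% of the cells, with no other type having more markers among the 10 leading genes. A name was also withheld where another type had at least 3 and at least 50.0% of its own markers up. The same held where UMIs per cell were far below the library's median and no own marker was among the 10 leading genes. The 50.0% and 10.0% limits were set after seeing the data. Together these rules left 6 finer clusters, with 24.7% and 33.9% of the cells of the wild type library and the library labelled transgenic, unnamed. T-like cells are the 1 finer cluster that could be named so. Members are always given. In each list up to 4 examples had the interval bound farthest from 1, and 3 genes alike in pattern were ranked per member.

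The members and lists were chosen with earlier results of these data known. Doublets were scored with Scrublet in scanpy 1.11.5, and the 8% highest were removed in an alternative only. Also tried were totals lacking the 20 most abundant genes, median-of-ratios scaling, mean per-cell CPM, thinning to 1000 UMIs, other count minimums and folds, adding left-out barcodes, a new Leiden clustering without the pathway's genes and leaving out the 5 cells with most UMIs of a gene. The finer monocyte-like clusters on their own were added after seeing the data. Calculations used Python 3.11.15, numpy 2.4.6 and scipy 1.17.1, and the intervals were tested on simulated counts.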

Additional observations from a re-analysis of the deposited data

Results flagged for a closer look

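The ratio of Il1b (library labelled transgenic over wild type) was 1.81 in neutrophil-like cells, above 1, and 0.691 in macrophage-like, 0.671 in monocyte-like, 0.681 in dendritic-like and 0.418 in T-like cells, below 1. Il1r2 had a ratio of 1.16 in neutrophil-like cells and of 0.445 in macrophage-like, 0.584 in monocyte-like and 0.487 in dendritic-like cells, and of 1.80 in the cluster led by Mcpt1, Mcpt2 and Cma2. Nlrp3 had a ratio of 1.21 in neutrophil-like cells and of 0.794 in macrophage-like and 0.697 in monocyte-like cells. These opposite directions rest on 1 library per genotype and the difference between classes was not tested. The median gene of the neutrophil-like cells had a ratio of 1.55, and relative to it Il1b stood at 1.17, Il1r2 at 0.752 and Nlrp3 at 0.779, the last 2 below 1 as in the other classes named with them, apart from the Mcpt1 cluster for Il1r2.

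Barcodes outside the deposited clusters held 1049 Il18 UMIs in the wild type library and 673 in the library labelled transgenic, against 352 and 241 in the deposited cells. Summed epithelial markers stood at 6508 and 5410 CPM in those barcodes with an Il18 UMI and at 729 and 833 CPM in those without. Il33 had 172 UMIs in 30 such barcodes of the wild type library and 23 UMIs in 12 of the other, against 15 and 11 in the deposited cells. Summed fibroblast markers were 22551 and 18049 CPM with an Il33 UMI and 208 and 268 CPM without.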

How the results depend on the processing

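Of 246 values of 29 member ratios under alternatives, 179 moved by less than their counting interval, 65 moved by more and 2 of ratios past 1.5-fold turned direction: Il1rap in monocyte-like cells, at 1.40 after thinning, and Il18 in neutrophil-like cells, at 1.12 without the 5 cells with most UMIs of the gene. A further 16 values, of ratios within 1.5-fold, crossed 1. Of these 7 were in neutrophil-like cells: Il1r2 was 0.747 and Il1rap 0.834 under median-of-ratios scaling, Il1r2 was 0.9 without the 20 most abundant genes, and Nlrp3 was 0.773 and 0.932 under these settings, 0.883 by the mean of per-cell CPM and 0.987 after thinning. Nlrp3 in dendritic-like cells was 1.99 after thinning, 1.64 with cells clustered again and 1.19 without the 5 highest cells. Il1a in macrophage-like cells was 1.29 after thinning, 1.20 without high doublet scores and 1.11 without the 5 highest cells. Il18r1 in T-like cells was 1.60 by the mean of per-cell CPM, and in monocyte-like cells Il18 was 1.44 in the Arg1, Saa3 and Nos2 cluster and Nlrp3 1.01 in the larger one. Il1b in monocyte-like cells was 0.635 under median-of-ratios scaling, 0.662 without the 20 most abundant genes and 0.658 without the 5 highest cells, past 1.5-fold. It was 0.715 by the mean of per-cell CPM, 0.730 after thinning and 0.673 without high doublet scores, within that fold. So it was with left-out barcodes added, at 0.720, and with cells clustered again, at 0.776. After thinning Il1b was 0.656 in dendritic-like and 0.667 in macrophage-like cells, both past it. Il1b in neutrophil-like cells was 1.16 under median-of-ratios scaling and 1.40 without the 20 most abundant genes, not past 1.5-fold. Il1rap in macrophage-like cells was between 0.680 and 0.882 without high doublet scores, with cells clustered again and without the 5 highest cells, and in monocyte-like cells 0.680 by the mean of per-cell CPM and 0.780 in the larger finer cluster, also not past it. The cause was not tested. The members past 1.5-fold in monocyte-like cells were 7 without the 5 highest cells and 2 in the Arg1, Saa3 and Nos2 cluster alone, an alternative chosen after seeing the data. They were 1 in macrophage-like cells with at least 50 UMIs and 5 in dendritic-like cells with no count minimum, where fewer or more genes were tested. They were 2 in neutrophil-like cells at 2-fold. In T-like cells they were 2 under the mean of per-cell CPM, with cells clustered again and with no count minimum. The share of Il1b UMIs in monocyte-like cells of the wild type library was 54.6% without high doublet scores, 58.4% with left-out barcodes of many genes, 56.8% with cells clustered again and 52.0% without the 5 highest cells. In the library labelled transgenic it was 42.1%, 30.7%, 32.9% and 38.6%. For neutrophil-like cells of the wild type library it was 29.3% without high doublet scores, 17.9% with left-out barcodes and 30.5% without the 5 highest cells, and for the other library 15.8%, 10.1% and 16.8%, with 15% after clustering again. No paired analysis was possible because each genotype had 1 library. Members under 20 UMIs in a class, such as Il33 in most, had too little depth for a ratio.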

Other observations

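The deposited cells held 51.7% and 56.9% of each library's Il1b UMIs. In the barcodes with many genes that the deposited clusters left out, those most like monocyte-like cells held Il1a at 131 and 98.2 CPM, Il1rn at 551 and 527 CPM and Il1r2 at 176 and 210 CPM. Those most like dendritic-like cells (301 and 457 barcodes) held Il1rn at 38.7 and 10.5 CPM and Il1r2 at 347 and 125 CPM, lower in the library labelled transgenic as in the deposited dendritic-like cells. Those most like macrophage-like cells (336 and 343 barcodes) held Il1r2 at 74.0 and 94.1 CPM, higher in the library labelled transgenic where the deposited macrophage-like cells were lower, and Il1rn at 107 and 56.8 CPM. Of the neutrophil-like kind there were 31 and 1 such barcodes, too few for a comparison. The classes of these barcodes were assigned by likelihood, which gave 85.9% of deposited cells their own class; each cell was part of the profile it was scored against, so this share is not an independent measure of accuracy.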
